A study of Homo sapiens with 6 samples.

Results

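The peaks described here are those that 82-kDa ChAT and SATB1 formed on 4 stretches of the genome reported as gained in SH-SY5Y, a human neuroblastoma cell line. A peak was a member if its start lay on chromosome 7 (outside 57 to 63 Mb, around the centromere), on chromosome 1 from 145 Mb (the 1q segment), on chromosome 2 below 55 Mb (the 2p segment) or on chromosome 17 from 45 Mb (the 17q segment), all on hg38. Of the 23953 peaks in the 4 deposited lists, 3675 were members. They were compared with the 12720 peaks on the other parts of chromosomes 1 to 22, outside 10 Mb on either side of each centromere, which are called the rest below. The 4613 peaks within those margins, or on chromosome 7 between 57 and 63 Mb, were in neither class, nor were peaks on other sequences.

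The cells stably expressed 82-kDa ChAT in all groups, were differentiated for 3 days with retinoic acid, and were then treated for 4 h with vehicle (Ham's F-12 medium) or with 100 nM oligomers of amyloid-beta (Aβ1–42). Chromatin was precipitated with an in-house antibody to the C-terminus of ChAT or with an antibody to SATB1, from 3 plates of cells per treatment, and the DNA was sequenced. There was 1 library for each protein and treatment, so no value has a replicate error, and comparisons between treatments are comparisons of 2 libraries. The members numbered 1160 of 8270 peaks for 82-kDa ChAT after vehicle, 1089 of 6563 after Aβ1–42, 416 of 3065 for SATB1 after vehicle and 1010 of 6055 after Aβ1–42. The paper gives a range of reads over its samples, but the number behind each list is not known.

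Choline acetyltransferase makes acetylcholine, and its 82-kDa form is concentrated in the nuclei of human cholinergic neurons. SATB1 is a chromatin organiser that binds AT-rich DNA at matrix attachment regions and anchors loops there. Neuroblastoma cells often carry extra copies of 17q, of distal 2p with the oncogenes MYCN and ALK, of 1q and of whole chromosome 7. In chromatin immunoprecipitation a segment with more copies supplies more DNA to the sequencer, from precipitated and from unprecipitated chromatin alike. The copy number of these cells was not measured in the files used here and the input libraries were not analysed here, so the label "gained" rests on what is known of the line, and the part of copy number in any result was not tested.

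To show what such peaks look like, the best-scored short peak that overlapped a peak of another list is printed here for chromosome 7, the 1q segment and the 2p segment, from the hg38 reference and on its forward strand. Capitals mark the bases that lay in both peaks. Scores are -10 log10 p of the peak caller, and within a list a higher score means a smaller p-value.
Chromosome 7, chr7:6282617-6282673: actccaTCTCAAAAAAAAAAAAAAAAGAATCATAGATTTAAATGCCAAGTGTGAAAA
1q segment, chr1:186130681-186130734: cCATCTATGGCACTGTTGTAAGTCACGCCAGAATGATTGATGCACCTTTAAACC
2p segment, chr2:45310661-45310924: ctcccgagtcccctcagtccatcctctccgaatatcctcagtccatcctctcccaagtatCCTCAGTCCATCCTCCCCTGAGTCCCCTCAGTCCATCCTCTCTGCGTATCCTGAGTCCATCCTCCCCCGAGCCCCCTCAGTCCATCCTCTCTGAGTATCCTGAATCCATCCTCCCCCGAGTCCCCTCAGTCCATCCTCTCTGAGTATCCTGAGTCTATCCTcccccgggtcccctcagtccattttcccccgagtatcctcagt

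The peak on chromosome 7 belonged to SATB1 after Aβ1–42, had a score of 158 and 24.6% GC, and shared 51 bases with a peak of 82-kDa ChAT after Aβ1–42 that scored 126. The printed sequence held a long run of A, and whether that run belongs to a repeat was not resolved. The peak touched no annotated gene, and the nearest protein-coding gene, CYTH3, was 9.97 kb away. The peak on the 1q segment belonged to 82-kDa ChAT after Aβ1–42 (score 151, 44.4% GC) and overlapped an exon of HMCN1, an extracellular matrix gene. It shared 53 bases with a SATB1 peak after Aβ1–42 that scored 71.3. On the 2p segment the printed peak, of 82-kDa ChAT after vehicle (score 125), was a tandem repeat of 58.3% GC in the long non-coding RNA gene LINC01121. It shared 161 bases with a SATB1 peak after vehicle that scored 59.7. These 3 were chosen for their scores and overlap, so neither says anything of the other members.

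All 4 lists had more peaks per Mb on the gained segments than on the rest. The segments held 350.3 Mb of determined sequence, which was 15% of the length compared, and 2638 protein-coding genes, which were 16.1% of the genes. For 82-kDa ChAT after vehicle, there were 3.31 peaks per Mb on the segments and 1.94 on the rest, a ratio of 1.71. After Aβ1–42 the densities were 3.11 and 1.96 peaks per Mb, a ratio of 1.58. For SATB1 after vehicle they were 1.19 and 0.744 (ratio 1.60), and after Aβ1–42 they were 2.88 and 1.78 (ratio 1.62).

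The intervals of the ratios lay above 1 when the spread between regions of a library was allowed for. The genome was divided into 498 windows of at most 5 Mb, and the ratio was fitted by quasi-Poisson regression, which widens the interval by the extra spread between windows. The 95% intervals were 1.47 to 1.99 for 82-kDa ChAT after vehicle, 1.46 to 1.72 after Aβ1–42, 1.39 to 1.83 for SATB1 after vehicle and 1.44 to 1.82 after Aβ1–42. The peaks were least evenly spread for 82-kDa ChAT after vehicle, where the variance between windows was 5.35 times that of random counts, against 1.55, 1.54 and 2.85 in the other lists in the same order. Counting error alone gave narrower intervals, of 1.60 to 1.83, 1.48 to 1.69, 1.43 to 1.78 and 1.51 to 1.74, and such intervals take no account of that spread.

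**Figure D1:**
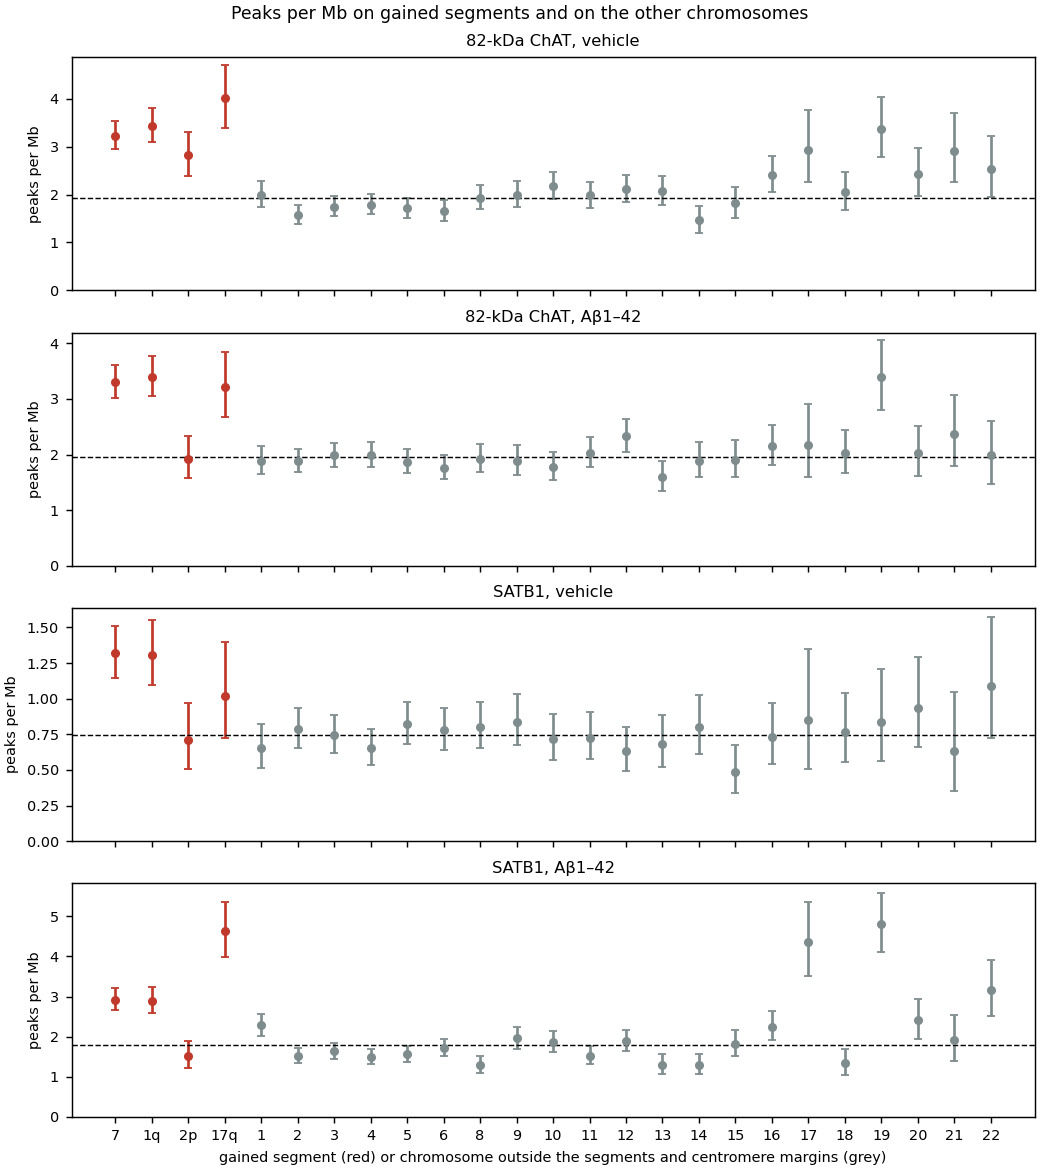
Peaks per Mb of determined sequence (vertical axes, 1 panel per list) on the 4 gained segments (red) and on the parts of 21 chromosomes outside the segments and centromere margins (grey), with 95% Poisson intervals for counting error. The dashed line is the density of the rest, and chromosome 7 and the 1q segment lie above 18 to 21 of the 21 grey points in every panel, whereas the 2p segment lies near the dashed line in the last 3 panels.

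The segments were not alike. Chromosome 7 stood above the rest in every list, with ratios of 1.67 (window interval 1.34 to 2.08) for 82-kDa ChAT after vehicle, 1.69 (1.5 to 1.89) after Aβ1–42, 1.77 (1.48 to 2.12) for SATB1 after vehicle and 1.64 (1.40 to 1.93) after Aβ1–42. The 1q segment was as high, with ratios of 1.77 (1.38 to 2.29), 1.73 (1.51 to 1.98), 1.76 (1.42 to 2.19) and 1.63 (1.34 to 1.97) in the same order of lists. No interval of these 8 ratios reached 1.

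On the 2p segment the ratio was 1.46 for 82-kDa ChAT after vehicle, with an interval of 0.995 to 2.13. In the other 3 lists the 2p segment had about as many peaks per Mb as the rest, with ratios of 0.982 (0.775 to 1.24), 0.953 (0.642 to 1.41) and 0.858 (0.603 to 1.22). In each of these 3 lists that upper limit lay below the ratios of chromosome 7 and the 1q segment. The 17q segment had ratios of 2.07 (1.41 to 3.02) and 1.64 (1.32 to 2.05) for 82-kDa ChAT and of 1.37 (0.926 to 2.03) and 2.60 (2.03 to 3.33) for SATB1. A comparison of the segments with each other was not fitted.

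**Figure D2:**
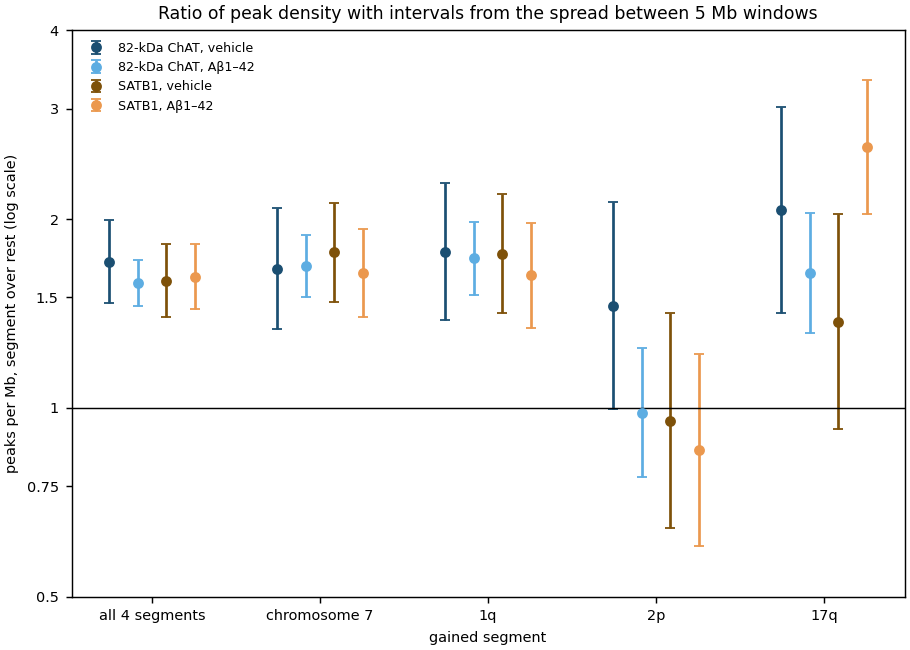
Peaks per Mb on all 4 gained segments together and on each, divided by the density of the rest (log scale), for the 4 lists in colour, with 95% intervals from the spread between 5 Mb windows. The points of chromosome 7 and 1q lie between 1.63 and 1.77, and 3 of the 4 points of 2p lie just below 1.

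Set among the other chromosomes, the 3 high segments were near the top. The remaining parts of 21 chromosomes ranged from 1.46 (chromosome 14) to 3.36 peaks per Mb (chromosome 19) for 82-kDa ChAT after vehicle, with a median of 2.0, and the 1q and 17q segments, at 3.44 and 4.01, were above all of them. Chromosome 7, at 3.23, was exceeded by chromosome 19 only. After Aβ1–42 the remainders ranged from 1.59 to 3.39 with a median of 1.98, and chromosome 19 was again the one remainder above chromosome 7 (3.31) and the 17q segment (3.22), whereas the 1q segment reached 3.40. For SATB1 after vehicle no remainder exceeded chromosome 7 (1.32) or the 1q segment (1.31), and chromosome 22, at 1.09, exceeded the 17q segment (1.02). For SATB1 after Aβ1–42, chromosomes 17, 19 and 22 exceeded chromosome 7 (2.92) and the 1q segment (2.90), and chromosome 19, at 4.81, exceeded the 17q segment (4.63). The 2p segment was exceeded by 3, 11, 15 and 14 of the 21 remainders in the 4 lists.

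A segment can also be compared with the rest of its own chromosome. On chromosome 1 the 1q segment had 1.72 times the peaks per Mb of the other analysed part for 82-kDa ChAT after vehicle (counting interval 1.45 to 2.04), 1.80 times after Aβ1–42 (1.51 to 2.14), 2.0 times for SATB1 after vehicle (1.5 to 2.70) and 1.27 times after Aβ1–42 (1.07 to 1.51). On chromosome 2 the ratio was 1.79 (1.46 to 2.20) for 82-kDa ChAT after vehicle and 1.02 (0.813 to 1.28), 0.903 (0.614 to 1.30) and 1.0 (0.774 to 1.29) in the other lists. For 82-kDa ChAT after vehicle, the outer 25 Mb of 2p had 1.69 (1.34 to 2.11) times the density of the rest. Its inner 30 Mb had 1.26 (0.983 to 1.58) times. The 20 Mb inside the 2p edge had 1.19, 0.972, 1.0 and 0.605 times the density of the 20 Mb outside in the 4 lists, and each interval held 1. For 82-kDa ChAT after vehicle the same ratio was 2.16 (1.23 to 4.04) at the 17q edge, with 8.4 Mb analysed outside. At the 1q edge it was 0.472 (0.269 to 0.883), with only 1.82 Mb analysed outside. In the other lists the intervals at both of these edges held 1. On chromosome 17 the ratios of the segment to the other analysed part were 1.36 (1.01 to 1.86) and 1.48 (1.04 to 2.12) for 82-kDa ChAT. For SATB1 they were 1.20 (0.669 to 2.22) and 1.06 (0.821 to 1.38), so the high density of SATB1 peaks after Aβ1–42 was measured on both analysed parts of chromosome 17, with 4.63 and 4.36 peaks per Mb.

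That list was rich in Alu, the most numerous short interspersed repeat of the human genome. Of its members, 77.6% matched an Alu copy, against 6.12% and 11% of the members of 82-kDa ChAT (vehicle, Aβ1–42) and 6.25% of those of SATB1 after vehicle. Alu-like copies numbered 375 per Mb on the 17q segment and 477 per Mb on the other analysed part of chromosome 17, against 229 on the rest as a whole, 253 on chromosome 7, 238 on 1q and 217 on 2p. The GC content was 41.4% on the segments together and 40.9% on the rest, with 45.1% on the 17q segment. With Alu-like copies per Mb as a term in the window fit, which was added once the data were known, the ratio for all segments was 1.46 (1.35 to 1.58) for SATB1 after Aβ1–42 and 1.65 (1.41 to 1.92), 1.54 (1.42 to 1.67) and 1.58 (1.38 to 1.81) in the other lists.

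Within the segments the excess was spread over many windows. Among windows with at least 2 Mb of determined sequence, the median was 3.00 peaks per Mb in 72 windows of the segments and 1.60 in 401 windows of the rest for 82-kDa ChAT after vehicle. After Aβ1–42 the medians were 3.10 and 2.0, and for SATB1 they were 1.20 and 0.600 after vehicle and 2.60 and 1.60 after Aβ1–42. The share of the segments' windows above the median of the rest was 91.7%, 79.2%, 77.8% and 73.6%, whereas 46.1%, 39.9%, 49.1% and 47.4% of the rest's own windows were above it. For the 2p segment alone, with 11 windows, the share was 81.8%, 36.4%, 54.5% and 27.3%. The groups of windows overlapped widely in every list, and the highest window of all, with 14.2 peaks per Mb, lay on the rest. Both arms of chromosome 7 took part. The short arm had ratios of 1.84, 1.57, 1.60 and 1.42 to the rest, and the long arm 1.57, 1.76, 1.87 and 1.77.

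**Figure D3:**
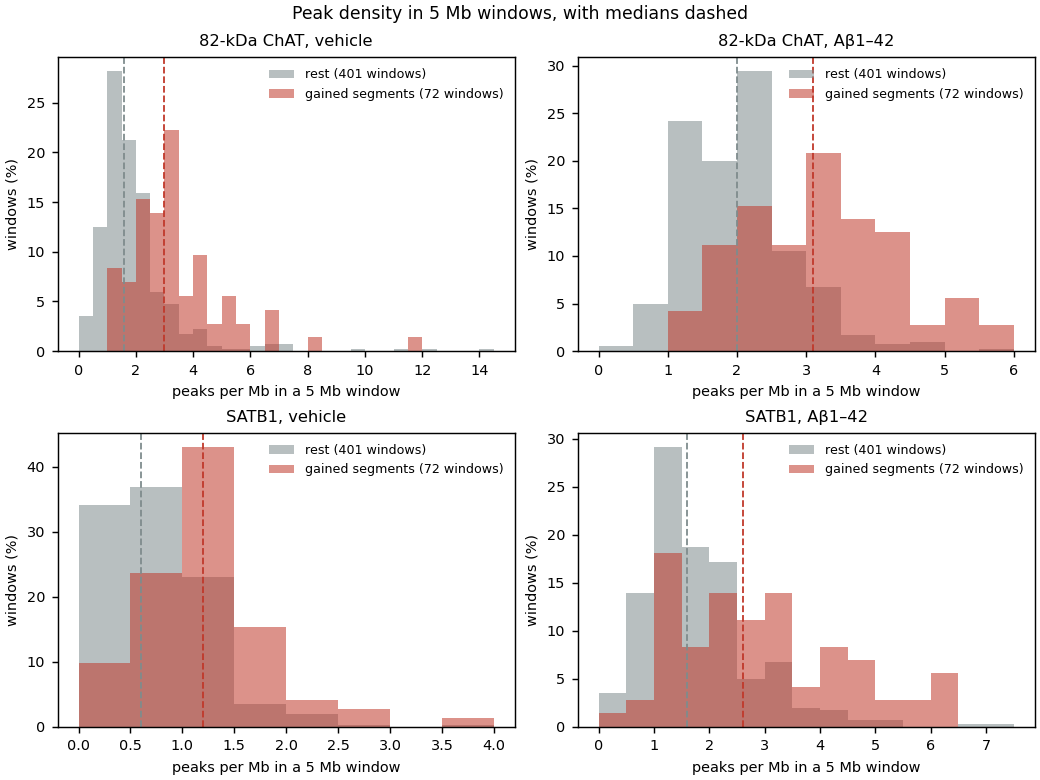
Share of 5 Mb windows (vertical axes, percent) at each density of peaks (horizontal axes, peaks per Mb), for 72 windows of the gained segments in red and 401 of the rest in grey, with dashed medians. The red medians lie to the right of the grey ones in all 4 panels, and the 2 distributions overlap.

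Chromosome ends carried dense groups of 82-kDa ChAT peaks after vehicle. The window with the most members, 11.5 per Mb, was on chromosome 7, and the outermost 5 Mb of the 2p segment had 8.02 per Mb against a median of 2.0 over that segment's windows. When 5 Mb at every chromosome end was left out of segments and rest, likewise added once the data were known, the ratio of all segments was 1.84 (1.67 to 2.03) for this list. That of the 2p segment was then 1.41 (1.10 to 1.80), so its interval no longer held 1. For SATB1 after vehicle the 17q segment reached 1.66 (1.16 to 2.37) without the ends, against 1.37 with them.

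The members had lengths close to those of the other peaks of their list. Their median length was 133 nt for 82-kDa ChAT after vehicle (134 nt on the rest), 106 nt after Aβ1–42 (110 nt), 130 nt for SATB1 after vehicle (126 nt) and 134 nt after Aβ1–42 (134 nt). The median scores were 65.1 on both for 82-kDa ChAT after vehicle, 63 and 63.6 after Aβ1–42, 66.3 and 66.9 for SATB1 after vehicle, and 65.4 and 67.0 after Aβ1–42. Between 57.6% and 62.0% of the members overlapped an intron and between 34.9% and 36.9% touched no gene. Of 44 shares compared between members and rest (genes, repeats and overlap with other lists), the 95% interval of the difference left out 0 in 4.

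Of these, 2 concerned multi-copy peaks, those with more than 50% of their 51-mers present more than once in the genome. They made up 50.1% of SATB1 members after Aβ1–42 and 59.1% of that list's peaks on the rest, and 12.1% and 15.5% for 82-kDa ChAT after vehicle. The other 2 concerned 82-kDa ChAT after Aβ1–42, of which 8.36% of members and 5.56% of the rest overlapped an exon, and 9.73% and 7.87% a promoter, taken as the 2000 nt before the start of a transcript. The intervals of those differences ran from 1.11 to 4.72 and from 0.010 to 3.93 percentage points, with no allowance for the number of shares compared.

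The density ratio was above 1 in every class of peak large enough to measure. It was 1.60 to 1.88 for Alu-matching peaks and 1.56 to 1.70 for the others over the 4 lists, and 1.64 to 2.04 for peaks that overlapped another list and 1.56 to 1.72 for those that did not. In 3 lists the ratio was higher without multi-copy peaks than among them. It was 1.97 (counting interval 1.78 to 2.19) against 1.37 (1.24 to 1.51) for SATB1 after Aβ1–42, 1.78 (1.66 to 1.91) against 1.33 (1.10 to 1.60) for 82-kDa ChAT after vehicle and 1.66 (1.47 to 1.87) against 1.33 (1.01 to 1.75) for SATB1 after vehicle. For 82-kDa ChAT after Aβ1–42 it was 1.58 (1.47 to 1.69) against 1.67 (1.33 to 2.08). In the SATB1 list after Aβ1–42 it was also 1.99 (1.80 to 2.19) for scores below the list's median of 66.4 and 1.30 (1.17 to 1.45) for scores at or above it. Peaks at or above that median made up 43.3% of its members and 53.7% of its peaks on the rest, a difference of -10.5 percentage points (-13.9 to -6.99). The difference was -14.0 points on chromosome 7, -6.90 on 1q and -15.3 on 17q, with intervals that left out 0, and 5.78 (-5.03 to 15.8) on 2p. In the other 3 lists it lay between -2.25 and -1.36 points, and each interval held 0.

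**Figure D4:**
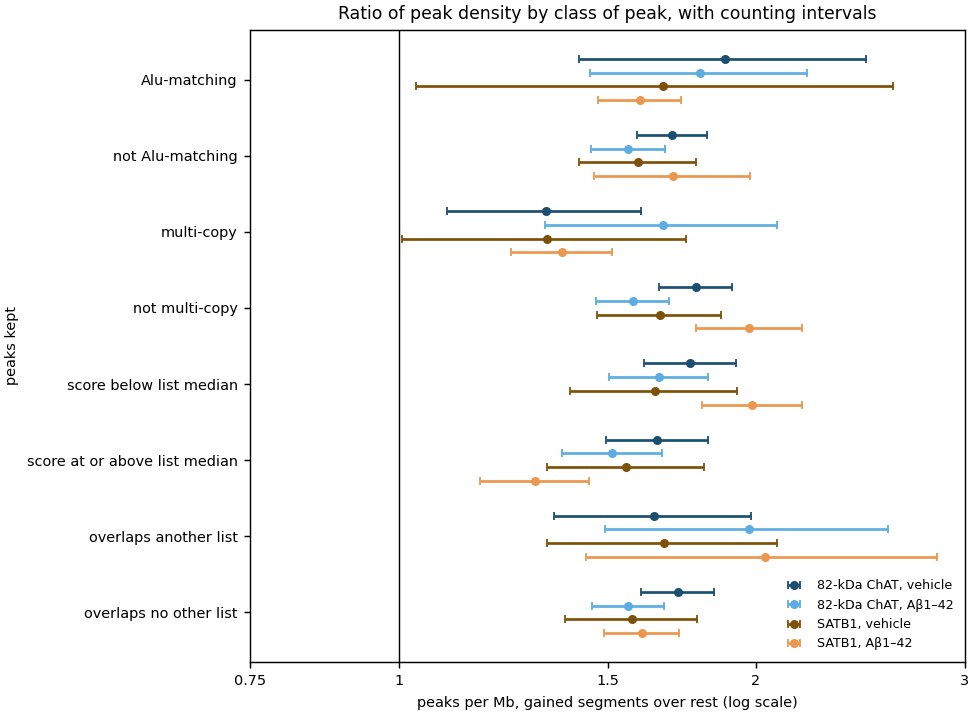
Ratio of peaks per Mb, gained segments over rest (horizontal axis, log scale), for classes of peak named on the vertical axis and the 4 lists in colour, with 95% counting intervals. All points lie to the right of 1, and the SATB1 list after Aβ1–42 has its highest values without multi-copy peaks (1.97), below the median score (1.99) and where another list overlaps (2.04).

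Peaks of different lists seldom met. The members formed 3304 loci with a peak in 1 list, 169 with peaks in 2 lists and 9 with peaks in 3, and none had a peak in all 4. Members that overlapped another list made up 12.2% of those of 82-kDa ChAT after vehicle, 6.80% after Aβ1–42, 25.5% of those of SATB1 after vehicle and 4.85% after Aβ1–42. On the rest these shares were 12.8%, 5.46%, 24.3% and 3.86%, and no interval of the difference left out 0. The 2 lists after vehicle met most often, at 98 members of 82-kDa ChAT (8.45%) and 97 of SATB1 (23.3%).

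Among the 9 loci in 3 lists, the strongest was in intron 5 of RPTOR, the subunit that gives mTOR complex 1 its substrates, at chr17:80743906-80744996. It scored 652 for 82-kDa ChAT after vehicle, 176 for SATB1 after vehicle and 52.5 for 82-kDa ChAT after Aβ1–42, and SATB1 after Aβ1–42 had no peak there. On chromosome 7 the locus chr7:155334542-155336181, outside any annotated gene, scored 211, 172 and 148 for 82-kDa ChAT after vehicle, 82-kDa ChAT after Aβ1–42 and SATB1 after Aβ1–42. On the 1q segment chr1:224013554-224014296, also outside genes, scored 204, 103 and 134 in the same lists and was rich in the satellite pentamer CATTC. The other loci included 1 in PTPRN2, 1 in CALN1 and 1 that touched NLRC4, and 4 of the 9 were multi-copy.

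Per protein-coding gene the excess was also present. The segments held 0.440 peaks per gene and the rest 0.278 for 82-kDa ChAT after vehicle, a ratio of 1.58 (counting interval 1.48 to 1.69). The ratio was 1.47 (1.37 to 1.57) after Aβ1–42, and 1.48 (1.32 to 1.65) and 1.5 (1.40 to 1.61) for SATB1. It differed between segments. Chromosome 7, with 6.05 genes per Mb, had ratios of 1.89 to 2.04, and the 1q segment, with 9.41, had 1.21 to 1.31. The 2p segment, with 4.98, had 2.04 (1.72 to 2.39), 1.37 (1.12 to 1.67), 1.33 (0.944 to 1.83) and 1.20 (0.955 to 1.49). All peaks were counted, in genes or not, so fewer genes per Mb raise this ratio. The 17q segment, with 12 genes per Mb, had 1.20 (1.01 to 1.41), 0.952 (0.789 to 1.14), 0.796 (0.564 to 1.09) and 1.51 (1.29 to 1.76).

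More of the genes on the segments carried a peak. For 82-kDa ChAT after vehicle, 405 of 2638 genes (15.4%) overlapped at least 1 peak, against 10.1% on the rest and 11% of all 16437 genes compared, a difference of 5.21 percentage points (3.79 to 6.72). After Aβ1–42 it was 411 genes (15.6%) against 10.9%, with 11.6% overall (difference 4.72, 3.28 to 6.24). For SATB1 after vehicle 176 genes (6.67%) stood against 4.71%, with 5.03% overall (difference 1.96, 0.998 to 3.03). After Aβ1–42, 399 genes (15.1%) stood against 11.8%, with 12.4% overall (difference 3.29, 1.86 to 4.80). The difference of this list was -0.136 (-1.16 to 0.988) for scores at or above the list median and 1.5 (-0.126 to 3.27) without chromosome 7, and that of SATB1 after vehicle was 0.728 (-0.317 to 1.95) without chromosome 7. In at least 1 list 909 genes (34.5%) had a peak, against 26.5% on the rest and 27.8% overall. Median gene length was 27.4 kb on the segments and 28.7 kb on the rest. Per Mb of gene sequence there were 3.32, 3.06, 1.19 and 2.98 peaks on the segments and 1.92, 1.93, 0.745 and 1.99 on the rest.

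Chromosome 7 led in the share of genes. There 17.2%, 19.8%, 8.94% and 18.4% of 928 genes had a peak in the 4 lists, and every interval of the difference from the rest lay above 0. On the 2p segment the difference was 5.91 percentage points (2.0 to 10.7) for 82-kDa ChAT after vehicle and its interval held 0 in the other lists. On the 17q segment SATB1 had a peak in 3.70% of genes after vehicle and in 15.5% after Aβ1–42. The rest had 4.71% and 11.8%, and the differences from it were -1.01 (-2.43 to 1.17) and 3.63 (0.564 to 7.27) percentage points. Peaks in all 4 lists were found in 30 of the 2638 genes (1.14%) and in 73 of 13799 on the rest (0.529%).

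The genes with the most peaks were long. On chromosome 7 these were PTPRN2, a phosphatase-like protein of dense-core vesicles, CNTNAP2, a neurexin-family adhesion protein, and MAGI2, a synaptic scaffold. PTPRN2 (ENSG00000155093, chr7:157539056-158587823, minus strand, 1049 kb) overlapped 23 peaks of 82-kDa ChAT after vehicle, 6 after Aβ1–42, 8 of SATB1 after vehicle and 8 after Aβ1–42. All 45 lay in introns of its MANE Select transcript, 18 were multi-copy, and the strongest, at chr7:158146913-158149264 in intron 6, scored 683 for 82-kDa ChAT after vehicle. PTPRN2 lies near the end of the long arm, where the densest window was.

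CNTNAP2 (chr7:146116002-148420998, 2305 kb) overlapped 4, 4, 3 and 13 peaks in the same order. All 24 were intronic, and 10 of the 13 SATB1 peaks after Aβ1–42 matched Alu, against 1 of the other 11. MAGI2 had 5, 5, 1 and 3 peaks over 1437 kb. Per 100 kb the densities were 4.29 peaks for PTPRN2, 1.04 for CNTNAP2 and 0.975 for MAGI2.

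**Figure D5:**
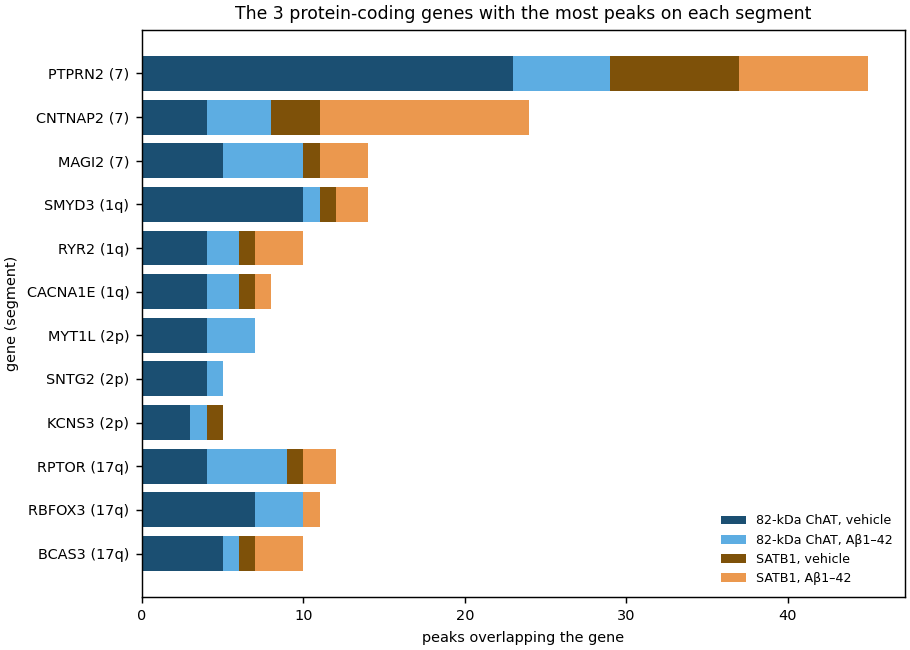
Peaks overlapping the 3 coding genes of highest count on each segment (horizontal axis, number of peaks, with the segment in brackets), stacked by list. PTPRN2 has 45 peaks in all, more than any other gene shown, and the 3 genes of 2p have 5 to 7.

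On the 1q segment the 3 genes were SMYD3, a lysine methyltransferase, RYR2, a calcium release channel, and CACNA1E, the pore of a neuronal calcium channel. SMYD3 had 10 peaks of 82-kDa ChAT after vehicle and 1, 1 and 2 in the other lists, and 9 of these 14 were multi-copy. RYR2 had 4, 2, 1 and 3 peaks and CACNA1E had 4, 2, 1 and 1. On the 2p segment MYT1L, a neuronal transcription factor, had 4 and 3 peaks of 82-kDa ChAT and none of SATB1. SNTG2, a syntrophin, had 4 and 1 and none of SATB1, and KCNS3, a potassium channel subunit, had 3, 1, 1 and 0. All 5 peaks of KCNS3 lay within the annotated gene but outside its MANE Select transcript. On the 17q segment RPTOR had 4, 5, 1 and 2 peaks, RBFOX3, the splicing factor known as NeuN, had 7, 3, 0 and 1, and BCAS3 had 5, 1, 1 and 3. SMYD3, MYT1L, SNTG2, RPTOR and RBFOX3 lie, like PTPRN2, within 5 Mb of a chromosome end. The 3 genes of each segment were chosen by their counts, so the counts are a description only.

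Of 31 genes tied to neuroblastoma on the segments, 14 had a peak in any list and 17 had none, beside 34.5% of all genes of the segments with one. Among those without a peak in any list were MYCN, the oncogene amplified in high-risk tumours, its neighbours DDX1 and NBAS, ODC1, ID2 and SOX11 on 2p, and BIRC5 and PPM1D on 17q. ALK, a receptor tyrosine kinase mutated in familial neuroblastoma, had 2 peaks of 82-kDa ChAT after vehicle and 1 in each other list, in 5 different places of its introns 1, 3, 4 and 12, with scores from 54.5 to 65.7. EGFR had 3 peaks and BRAF had 2, in each case of 82-kDa ChAT after vehicle alone. The list's genes with a peak numbered 8, 7, 7 and 4 in the 4 lists, in which 15.4%, 15.6%, 6.67% and 15.1% of all genes of the segments had one. The median length of the 31 genes was 71.8 kb, and 3.54, 2.43, 1.55 and 1.55 peaks fell on each Mb of their sequence, beside 3.32, 3.06, 1.19 and 2.98 for all genes of the segments. RPTOR, named above for its count, had 4, 5, 1 and 2 of the list's 16, 11, 7 and 7 peaks.

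Genes of neuronal adhesion and axon guidance (24, median length 308 kb) had a peak in 13, 11, 8 and 13 cases in the 4 lists, beside those same shares of all genes, and 5 had none in any. Besides CNTNAP2 and MAGI2, SDK1 had 5, 3, 0 and 3 peaks and AUTS2 had 5, 5, 0 and 2. PLXNA4, a semaphorin co-receptor, had 1, 4, 1 and 1. Over the list there were 2.58, 2.25, 0.916 and 2.83 peaks per Mb of gene, each below the value for all genes of the segments.

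Of 27 genes for ion channels and transmitter receptors, 15 had a peak in any list, beside 34.5% of all genes. DPP6, a partner of A-type potassium channels, had 6, 5, 2 and 0 peaks, and KCNH1 had 3, 1, 0 and 3, whereas the muscarinic receptor gene CHRM2, the glutamate receptor gene GRM3 and the cardiac channel gene KCNH2 had none. Of 24 genes listed under synaptic vesicles, scaffolds and neuronal signalling, 19 had a peak in any list, beside the same 34.5%. The list includes SMYD3, a methyltransferase, MYT1L, a transcription factor, and RBFOX3, a splicing factor, so it is not one of synaptic genes alone. SMYD3, RBFOX3, MYT1L and SNTG2 had 10, 7, 4 and 4 of its 48 peaks of 82-kDa ChAT after vehicle. These genes, and RYR2 and KCNS3 of the channel list, were named above for their counts. EXOC4, of the exocyst, had 5, 4, 2 and 1, PDE1C had 3, 6, 1 and 1, and FOXP2 had 2, 5, 0 and 2, whereas the presynaptic scaffold gene PCLO had none over 409 kb. These 2 lists had 3.44 and 4.14 peaks of 82-kDa ChAT after vehicle per Mb of gene, and 1.24 and 1.81 of SATB1 after Aβ1–42. Those of 82-kDa ChAT after Aβ1–42 were 2.75 and 3.10, and those of SATB1 after vehicle were 0.964 and 0.948, beside the 3.32, 3.06, 1.19 and 2.98 of all genes in the 4 lists. The median gene length was 82.2 kb for the channels and receptors and 526 kb for the synaptic and signalling list. It was 27.4 kb for all genes of the segments, and the part of length in these shares was not tested.

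The 2 treatments put similar shares of their peaks on the segments. Of the peaks on segments and rest together, 23.2% of those of 82-kDa ChAT after vehicle and 21.9% after Aβ1–42 were members, an odds ratio of 0.927 with an exact interval of 0.842 to 1.02. For SATB1 the shares were 22% and 22.3%, an odds ratio of 1.01 (0.890 to 1.16). Without multi-copy peaks the odds ratios were 0.885 (0.80 to 0.979) and 1.19 (1.01 to 1.40). Each of these ratios sets 1 library against 1 library, and the interval covers counting error only.

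By segment the exact interval of the odds ratio left out 1 in 2 of 8 comparisons. It covers counting error only and takes no account of the spread between windows. On the 2p segment 82-kDa ChAT had 155 peaks after vehicle and 106 after Aβ1–42, an odds ratio of 0.675 (0.520 to 0.873) against the rest. On the 17q segment SATB1 had 39 peaks after vehicle and 177 after Aβ1–42, an odds ratio of 1.90 (1.33 to 2.77), and with scores at or above the list median it was 1.42 (0.846 to 2.49). The other 6 odds ratios lay between 0.793 and 1.01 and their intervals held 1.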

How the data were processed

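Peak lists of 4 ChIP-seq libraries were used. The authors mapped reads to hg38 with BWA and ran MACS with a p-value limit of 1e-05. The paper states that peaks found in the input were filtered out. It reports fewer peaks for each protein and treatment than the deposited lists hold, so whether these lists had that filter is not known. The deposited score of a peak is -10 log10 p, which at that limit is at least 50. Read counts are not in the files used here. No peak reached beyond the end of an hg38 sequence (0 of 23953).

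Each peak was placed by its start. Lengths excluded undetermined bases, centromeres were taken from a table checked against CENP-B boxes, and genes came from GENCODE 44. Ratios had exact conditional binomial intervals, and intervals from a quasi-Poisson regression over 5 Mb windows (statsmodels 0.14.6). Shares had Clopper-Pearson intervals, their differences Newcombe intervals, and odds ratios exact intervals, all at 95% (scipy 1.17.1, pandas 2.3.3, numpy 2.4.6, Python 3.11.15). With 1 library per group no p-value was computed. Alu matches were found with blastn 2.17.0 (e-value 1e-05) against a 287 nt Alu copy, and Alu-like copies in the genome were counted from shared 16-mers. Sequences were read with pysam 0.24.0 and samtools 1.23.1. The fits were tested on simulated data, in which the window intervals held the true ratio somewhat less often than their stated level. The simulated windows varied independently of their neighbours, at a fixed spread not matched to that of any list.

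Named genes were the 3 with the most peaks on each segment and the members of 4 lists (neuroblastoma, adhesion and axon guidance, channels and receptors, synaptic and signalling), of which 1 channel gene and 1 synaptic gene lay outside the segments. Printed sequences were, per segment, the highest-scored peak of at most 300 nt that overlapped another list and was not multi-copy. The printed peak of the 17q segment and 2 of the listed genes are not reported here. The segments, gene lists and tests were chosen with earlier results of these data known. Alternatives covered score, list size, length, margins, comparison region, repeats, merging, windows, covariates and each segment in turn.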

Additional observations from a re-analysis of the deposited data

Results flagged for a closer look

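The 2 differences between treatments on single segments were picked out of 8 because the exact interval of the odds ratio left out 1. For 82-kDa ChAT on the 2p segment the odds ratio of Aβ1–42 to vehicle was 0.675 (0.520 to 0.873). It was 0.687 without 5 Mb at the chromosome ends, 0.679 without multi-copy peaks and 0.590 for scores at or above the list median, with intervals below 1 in each. For SATB1 on the 17q segment it was 1.90 (1.33 to 2.77), and 1.58, 2.47 and 1.42 under the same settings, the last with an interval of 0.846 to 2.49. Alu-matching peaks made up 15.4% of SATB1 peaks on 17q after vehicle (6 of 39) and 80.2% after Aβ1–42 (142 of 177), and on the rest 5.97% and 78.7%. The part of Alu content in the difference was not tested. Each comparison sets 1 library against 1, and the intervals cover counting error only.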

How the results depend on the processing

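The ratio of peaks per Mb kept its direction and an interval above 1 under all 22 alternatives in each list, with values from 1.64 to 1.84 and from 1.5 to 1.70 for 82-kDa ChAT (vehicle, Aβ1–42) and from 1.46 to 1.72 and from 1.30 to 1.97 for SATB1. The ratio per gene did so under all 7, from 1.17 to 1.90. The difference in the share of genes with a peak kept its call in 25 of 28. For SATB1 after Aβ1–42 it was -0.136 percentage points for scores at or above the list median and 1.5 without chromosome 7, and for SATB1 after vehicle 0.728 without chromosome 7, all with intervals that held 0. The odds ratio between treatments gained an interval without 1 in 3 of 18, at 0.885 (82-kDa ChAT) and 1.19 (SATB1) without multi-copy peaks and 0.864 (82-kDa ChAT) without chromosome 7.

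By segment and without the chromosome ends, density ratios of 1.41 (82-kDa ChAT after vehicle, 2p) and 1.66 (SATB1 after vehicle, 17q) gained an interval above 1. The odds ratio between treatments gained an interval below 1 for 82-kDa ChAT on 17q, at 0.706 without the ends and 0.726 without multi-copy peaks, and for SATB1 on chromosome 7, at 0.709 for scores at or above the median. The odds ratio of 1.42 for SATB1 on 17q at such scores lost its interval above 1. The causes were not tested. Settings by segment, chromosome ends, Alu content, all repeat classes together and a rest without 5 chromosomes were chosen after seeing the data. Length without repeat-masked bases was not run, because the reference is in capitals throughout. No paired analysis was possible because each group has 1 library. The depth of each list is unknown, so it could not be set against any difference between lists.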
